A study of Mus musculus with 4 samples.

Results

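The iNSC_14F array, hybridized with RNA of mouse cells turned towards a neural stem cell state with 14 factors, was compared with the MEF array, hybridized with RNA of mouse embryonic fibroblasts. The comparison took in 2 of the 4 arrays of the series and every probe set that the platform annotation names by 1 gene. These were 34945 of 45101 probe sets, for 18193 genes. The series asked whether adult liver cells and B lymphocytes of the mouse can be turned into neural stem-like cells by defined factors, and it also holds 1 array of neural stem cells taken from primary tissue (NSC) and 1 of cells induced with 13 factors (iNSC_13F). Total RNA was extracted with Trizol and hybridized to Affymetrix mouse genome arrays. The labels do not name the 14 factors, nor do they say which cells iNSC_14F was started from, whether it was a clone or a pool, or for how long it was kept. They give the induced cells and NSC an N2 medium with EGF, bFGF and laminin and give no medium for the fibroblasts, so that cell type and medium cannot be told apart here. The source label reads embryonic stem cells for all 4 samples, against the cell type labels, and was not used. With 1 array a side there is no replicate spread, so the sizes below carry no SD and no test.

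Fibroblasts of the embryo are mesenchymal cells that build and pull on a collagen-rich matrix, crawl with bundles of actin and respond to TGF-beta, PDGF and stretch. Neural stem cells of the radial glia type sit in a different matrix of hyaluronan-binding proteoglycans, are held as progenitors by Sox, Olig and Pou factors and by Notch signals, and grow in culture on EGF and FGF. A cell moved from another lineage to the neural one therefore has to differ from a fibroblast in adhesion, matrix, cytoskeleton, growth signals and transcription factors together.

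A signal here is the MAS5 intensity of a probe set, a linear brightness in which each array's trimmed mean was 500. Signals up to 103.91 were taken as background (the floor, from receptor genes of smell, pheromones and taste) and were set to it. The floor is the limit found on MEF, and that of iNSC_14F alone was 70.95. Signals of iNSC_14F between 70.95 and 103.91 are called background here all the same. A fold against an array at the floor is a lower bound and is written "at least". A gene is called level where its difference was under 2-fold. Of the 18193 genes, 11572 were above the floor on at least 1 of the 2 arrays and are called measured: 8945 on both, 1011 on iNSC_14F alone and 1616 on MEF alone. The hybridization controls, transcripts added in equal amount by design, differed by 1.01-fold between the 2 arrays. For the actin control, the signal at the 3' end over that at the 5' end, which is higher where RNA is less intact, was 1.65 on iNSC_14F and 1.42 on MEF. Its part in the differences below was not tested.

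Most genes were close on the 2 arrays, and the tail was longer on the fibroblast side. Of the measured genes, 63.0% lay within 2-fold, 2088 (18.0%) were at least 2-fold higher in iNSC_14F and 2196 (19.0%) at least 2-fold lower, and the median log2 difference was 0.10. At 4-fold, the size used to call a gene, 520 were higher (4.49%) and 929 lower (8.03%), and the higher ones made up 35.9% of all calls. Lower genes also led at larger sizes, though the imbalance did not grow at every step. The counts were 184 against 404 genes at 8-fold, 84 against 183 at 16-fold and 36 against 80 at 32-fold. At 64-fold they were 15 against 41, at 128-fold 6 against 16 and at 256-fold 1 against 6. Bounds made up 233 of the 520 and 416 of the 929. Signals of at least 1000 in iNSC_14F stood against MEF below the floor for 85 genes, and the reverse held for 185. Where a called gene had 2 or more measured probe sets, all of them lay on the same side for 234 of 251 higher genes and 511 of 523 lower genes. As a yardstick, 95% of genes above the floor on both induced arrays lay within 2.32-fold of each other, and 2258 genes (25.2%) exceeded that between iNSC_14F and MEF. Those arrays are different samples, so the yardstick is not a replicate error.

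**Figure D1:**
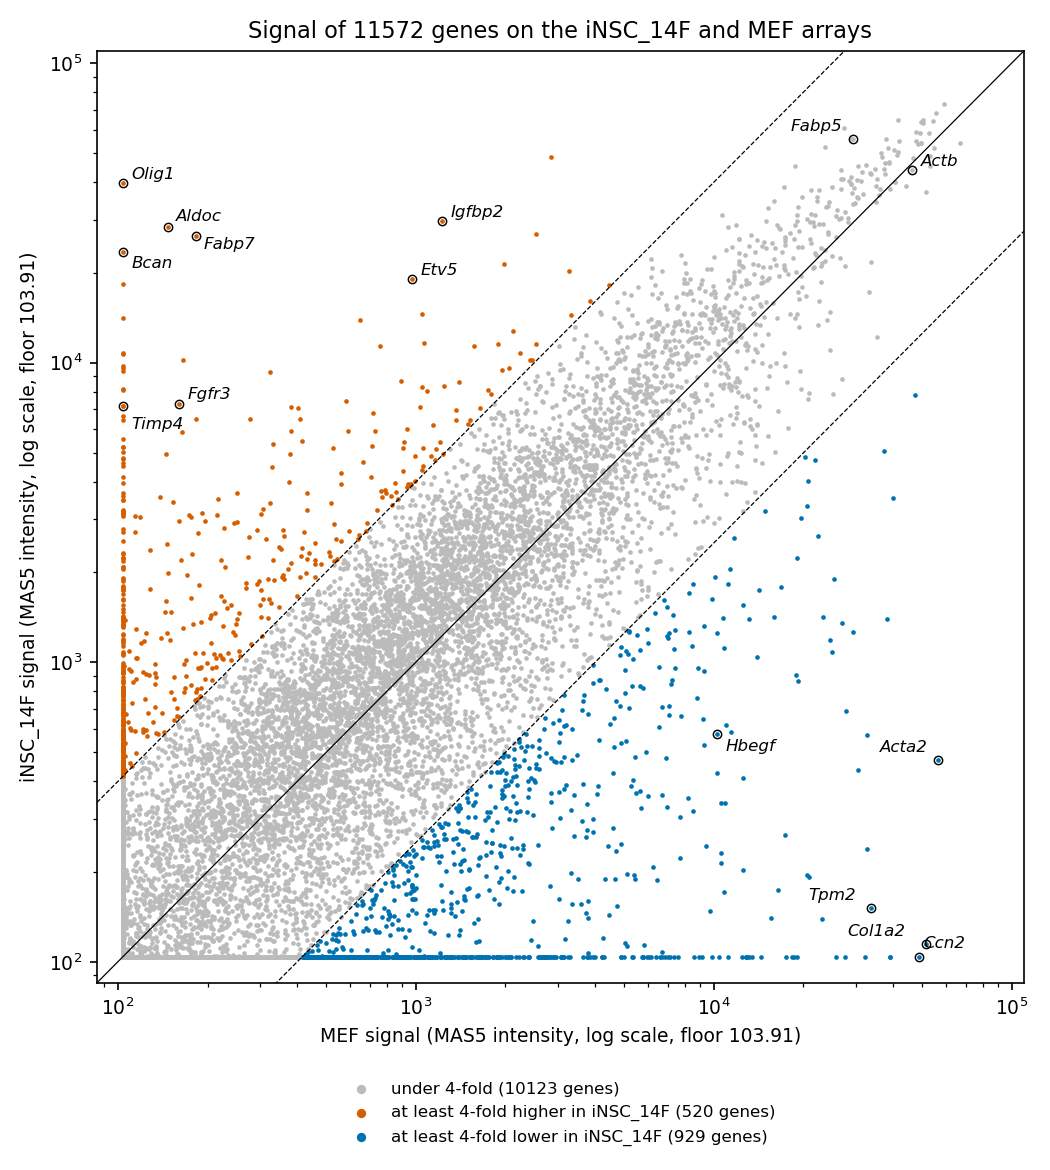
Signal of each of the 11572 measured genes on MEF (horizontal) and iNSC_14F (vertical), both MAS5 intensities on log scales with values below 103.91 drawn at that floor; solid line, equal signal; dashed lines, 4-fold. The 929 genes below the lower dashed line reach further from the diagonal at high MEF signal (Col1a2, Acta2, Ccn2) than most of the 520 above the upper one, and the column at the left and the row at the bottom are bounds.

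The labels of both samples were set against markers of the named cells. Of 10 fibroblast markers, 9 were above the floor in MEF, with a summed signal of 158237, while in iNSC_14F only Col1a2 and Thy1 were, and the sum was 564.6. Of 9 neural stem cell markers on the array, 7 were above the floor in iNSC_14F (Sox2, Nes, Fabp7, Pax6, Olig2, Msi1 and Slc1a3), with a sum of 50457 against 1692 in MEF, where Nes, Fabp7 and Msi1 were above it. Sox1 (93.2) and Prom1 (39.8) were not above the floor in iNSC_14F. The sum on the NSC array was 57824, and that of the fibroblast markers there 646.1. Markers of the starting cells that the series title names were at background: 0 of 5 hepatocyte markers and 0 of 4 B lymphocyte markers were above the floor on either array. Of 4 markers of pluripotent cells only Esrrb (133 in iNSC_14F) was above it. Among other cells, Tubb3, Syt1 and Map2 of 6 neuron markers, S100b and Aldh1l1 of 4 astrocyte markers, and Sox10 of 4 oligodendrocyte markers were above the floor in iNSC_14F, with sums of 2623, 760.4 and 201.6 against 1458, 261.8 and 129.2 in MEF. Tubb3, a tubulin of neurons, was the brighter in MEF (989.7 against 174). In MEF the epithelial markers Epcam, Krt8 and Krt18 were above it (sum 1058), as were Cd68 and Csf1r of macrophages (468). From 1 RNA sample, fewer cells of a kind and less RNA per cell cannot be told apart.

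The transcription factors that hold neural progenitors gave some of the widest gaps. Of 50 factors of that list on the array 42 were measured. In iNSC_14F 25 of them were higher by 2-fold or more, 4 were lower and 13 level, where 18.0% of all measured genes were higher and 19.0% lower, and the median log2 difference was 1.63 against 0.10 for all measured genes. Counts for the lists that follow use the same 2-fold limit. Olig1, a factor of the oligodendrocyte and progenitor lineage, read 8.53 in MEF and 39828 in iNSC_14F, at least 383-fold higher and the largest bound on that side. The related Olig2 read 3.89 and 6424 (at least 61.8-fold). Sox2, the factor shared by neural and pluripotent stem cells, read 68.9 and 10782 (at least 104-fold), and Rfx4, a factor of the developing brain, 4.36 and 10675 (at least 103-fold). On these 4 genes MEF was at background and iNSC_14F bright. NSC read 21677, 8598, 8337 and 12110, and iNSC_13F 34636, 8839, 7699.6 and 11681, so that MEF was the lowest of the 4 arrays for each.

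Within families of these factors the differences were uneven. Among 12 measured Sox genes 9 were higher and none lower. Beyond Sox2 they were led by Sox8 (50.9 against 5567, at least 53.6-fold) and Sox3 (114 against 3089, 27.0-fold), with Sox21 (6.95-fold) and Sox9 (5.77-fold) next. The 2 probe sets of Sox3 gave log2 differences of 0.56 and 4.75. Sox4, bright in MEF already at 15900, was 2.18-fold higher, Sox11 was level (1876 and 2846), and Sox10, the factor of committed oligodendrocytes and neural crest, was barely above the floor at 109. The Pou class 3 factors, which act with Sox2 in neural progenitors, were all below the floor in MEF, and 4 of 7 measured Pou genes were higher. Pou3f3 read 8175 in iNSC_14F, Pou3f4 2715, Pou3f1 1339.8 and Pou3f2 only 146. Zic1 was 9.66-fold higher, while Zic2 and Zic5 read 114 and 162. Tox3 (at least 31.0-fold) completed the 8 largest of the list. The 4 lower members included Id4, an inhibitor of helix-loop-helix factors, at 1152 in MEF and 146 in iNSC_14F (7.91-fold lower), while Id1, Id2 and Id3 lay within 2-fold. Gli2 (-0.14 on the log2 scale) was among the members nearest to no difference. Over the 23 members above the floor on both arrays the list median was 0.86.

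Genes of radial glia and astrocytes were higher as a group. Among 28 measured radial glia genes 14 were higher and 1 lower (median log2 1.00), and among 24 astrocyte genes 16 and 1 (median 2.34). Some genes stand on both lists. Aldoc, the brain form of aldolase, read 147 in MEF, 28303 in iNSC_14F, 17206 in iNSC_13F and 4520.3 in NSC. That is 193-fold higher in iNSC_14F than in MEF, the largest higher difference among genes above the floor on both arrays; its 2 probe sets gave log2 differences of 3.10 and 7.59. Fabp7, which binds fatty acids in radial glia, read 182 and 26405 (145-fold). The glutamate transporter Slc1a3 read 54 and 3582 (at least 34.5-fold), the membrane protein Mlc1 2.85 and 3187 (at least 30.7-fold) and the homeodomain protein Hopx 128 and 2374 (18.5-fold). Acsbg1, an acyl-CoA synthetase, was at least 30.2-fold higher, Plpp3 13.8-fold and Atp1b2, a sodium pump subunit, at least 21.5-fold. Other glial genes were level. Gfap, the filament of mature astrocytes, was at the floor, with 109 in MEF and 96.9 in iNSC_14F. Vimentin (Vim), shared by fibroblasts and radial glia, read 53269 and 45526, a log2 difference of -0.23. Nestin (Nes), a filament of neural progenitors, was 1022 in MEF and 1682 in iNSC_14F and so stayed within 2-fold.

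The oligodendrocyte list went both ways. Of 16 measured members 7 were higher and 4 lower. Those higher included the neural proteoglycans Bcan (brevican, 69.6 and 23491, at least 226-fold) and Ncan (neurocan, at least 69-fold), Bcas1 (97.4 and 3142, at least 30.2-fold) and Cnp (1048 and 8277, 7.90-fold). The 3 probe sets of Ncan gave log2 differences from 2.37 to 6.11. Cspg4, the NG2 proteoglycan carried by oligodendrocyte precursors and by pericytes, went the other way, at 2249 and 520.3 (4.32-fold lower). Opalin and C1ql1 read 116 and 132 in iNSC_14F, next to the floor.

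Neuronal genes were neither absent nor uniform. Of 35 measured members 14 were higher and 8 lower (median log2 0.29). The small adaptor genes Bex1 (166 and 10216, 61.6-fold) and Bex2 (62.8 and 18261, at least 176-fold) led, and Bex4 was at least 29.6-fold higher while Bex3 was bright on both arrays (8748 and 10621). Rtn1, a reticulon, was at least 50.5-fold higher, Syt11, a synaptotagmin, 28.7-fold, Syn2, a synapsin, at least 11.4-fold, and Map2, a microtubule protein of dendrites, 8.25-fold. Against these stood Stmn2, at 2770.3 in MEF and 3.29 in iNSC_14F (at least 26.7-fold lower), and Dpysl3, at 8170 and 353 (23.2-fold lower). Both are genes of growing neurites. The stathmins therefore divided, with Stmn3 (7.15-fold) and Stmn1 (2.94-fold) higher, and Stmn4 (at least 2.68-fold) lower beside Stmn2. Mapt, Scg3 and Kif5a were at the floor on both arrays or next to it (107, 105 and 104 on the brighter one).

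Adhesion molecules and proteoglycans of neural tissue were higher. Of 26 measured genes 17 were higher and 1 lower, with a median log2 of 2.04, and 18 of the differences were bounds. Gpm6a and Gpm6b, membrane proteins of neurites and glia, read 8124 and 4146 against 5.04 and 98.3. Dner, a Notch ligand of neural cells, read 4760.3 against 50.1, Lrrn1 1906 against 11.2, Cspg5 1685 against 102 and Astn1 1398 against 8.07. MEF was at background for all 6. Over the 8 members above the floor on both arrays the median was -0.09, so the shift of the list rested on genes that MEF did not show. L1cam and Cntn2 were near the floor on both arrays. Spon1, which encodes a matrix protein of the floor plate, was also among the largest bounds (42 and 14066, at least 135-fold), and so was the pentraxin gene Nptx1 (2.47 and 9732, at least 93.7-fold). The 4 probe sets of Spon1 gave log2 differences from 0.77 to 7.08.

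**Figure D2:**
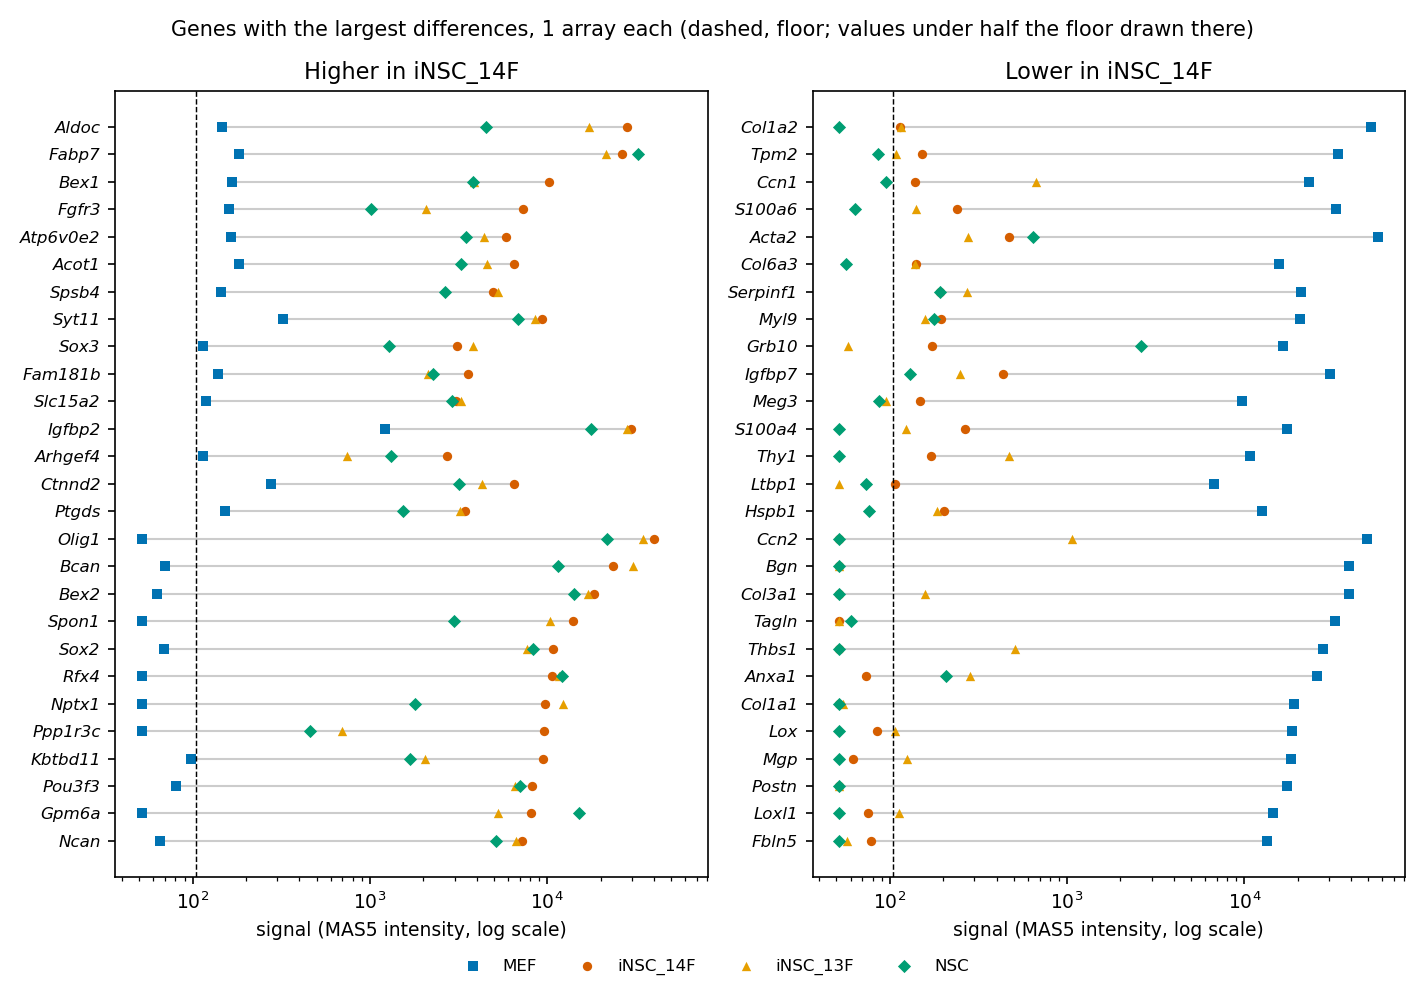
Signal (MAS5 intensity, log scale) of the genes with the largest differences between iNSC_14F and MEF, on all 4 arrays; each symbol is 1 array. In the left panel the MEF squares lie at or near the floor (dashed), except for Igfbp2 at 1222, and the other 3 arrays lie to their right; in the right panel MEF alone is above 1000, apart from Grb10 on NSC and Ccn2 on iNSC_13F.

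Other genes with the largest differences above the floor on both arrays had no common list. They were the proton pump subunit Atp6v0e2 (165 and 5875, 35.7-fold higher), the acyl-CoA thioesterase Acot1 (35.3-fold), Spsb4 (34.4-fold), Fam181b (25.7-fold), the peptide transporter Slc15a2 (25.6-fold), the exchange factor Arhgef4 (23.7-fold), delta-catenin (Ctnnd2, 23.5-fold) and the prostaglandin D synthase Ptgds (22.4-fold). Kbtbd11 and the glycogen-targeting subunit Ppp1r3c were bounds, at 98.4 against 9418 and 18.3 against 9611. The 3 probe sets of Slc15a2 gave log2 differences from 2.04 to 4.68, and the 2 of Ppp1r3c gave 2.53 and 6.53. For Ppp1r3c the other neural arrays were far dimmer than iNSC_14F, with 694 on iNSC_13F and 462 on NSC.

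In the other direction the matrix of the fibroblast lay far lower. Of 43 measured genes of that list 34 were lower in iNSC_14F, 1 higher and 8 level, and the median log2 difference was -3.50, or -1.24 over the 22 members above the floor on both arrays. Ccn2, a matricellular protein of connective tissue, read 48902 in MEF and 24 in iNSC_14F, at least 471-fold lower and the widest gap in that direction. The proteoglycan Bgn (biglycan) read 39133 and 7.22 (at least 377-fold), thrombospondin 1 (Thbs1) 27589 and 30.2 (at least 266-fold), and periostin (Postn) 17423 and 7.65 (at least 168-fold). Lox and Loxl1, the enzymes that crosslink collagen and elastin, were at least 179 and 139-fold lower. The 3 probe sets of Lox gave log2 differences from -7.48 to -1.24. Mgp, an inhibitor of calcification, and Fbln5, a protein of elastic fibres, were at least 176 and 129-fold lower. For these genes iNSC_14F was at background while MEF was bright. Nearest to no difference were Fbln2 (fibulin 2, 19623 and 19533), Plod3 and Matn2, the latter 2 with log2 differences of 0.08 and -0.07.

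The collagens showed the same pattern gene by gene. Of 26 measured collagen genes 22 were lower, 3 level and 1 higher, and the median log2 difference was -3.46. Col1a2, one chain of type I collagen, read 51598 in MEF and 115 in iNSC_14F, 450.5-fold lower, and its partner Col1a1 18978 and 35 (at least 183-fold). Col3a1 was at least 375-fold lower and Col6a3 111-fold. The 3 probe sets of Col1a2 all pointed that way, with log2 differences from -8.82 to -1.63. Col9a3, a chain of the cartilage and neural collagen type IX, was the exception at 9.75 and 429 (at least 4.13-fold higher). Of 14 measured integrin chains, the receptors of the matrix, 7 were lower and 1 higher. Itgb5 was 11.8-fold lower and Itgb1, the beta chain common to most integrins, 10.8-fold, with 6571 in MEF and 606 in iNSC_14F. The laminin receptor chain Itga6 was 2.56-fold higher and the brain chain Itgb8 had a log2 difference of 0.78. Of 8 laminin chains 3 were lower and 2 higher, with Lama4 at least 9.69-fold lower, Lama2 at least 2.02-fold lower and Lama5 3.80-fold higher.

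Surface proteins and transcription factors of mesenchyme followed. Of 29 measured surface genes 19 were lower and none higher (median log2 -2.46, or -1.96 with both arrays above the floor). Pdgfrb, the PDGF receptor of mesenchymal cells, read 13144 and 0.359 (at least 126-fold lower), Thy1 10813 and 171 (63.4-fold), S100a4 (fibroblast-specific protein) 17294 and 265 (65.1-fold) and caveolin 1 (Cav1) 10563 and 214 (49.3-fold). Cd248 was 24.8-fold lower, and Cavin3, Osmr and Cavin2 at least 29.7, 23.1 and 22.9-fold. Pdpn, Eng and Tnfrsf1a lay within 2-fold. Among 58 measured mesenchymal factors 34 were lower and 4 higher (median -1.54, or -0.96 with both arrays above the floor). Snai2, the factor of epithelial-mesenchymal transition also called Slug, read 6048 and 7.27 (at least 58.2-fold), and Prrx1 5357 and 87.1 (at least 51.6-fold). Foxc2, Twist2, Twist1 and Shox2 were at least 30.4, 29.7, 15.8 and 10.1-fold lower, all with iNSC_14F at background, and Foxp1 was 16.8-fold lower at 198. Nr2f1, a nuclear receptor of mesenchyme and of the developing cortex, was the contrary member, with 379.9 in MEF and 7095 in iNSC_14F (18.7-fold higher).

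The contractile apparatus was lower as a block, and its cytoplasmic actins were not. Of 54 measured genes 42 were lower, none higher and 12 level (median log2 -2.14, or -1.85 with both arrays above the floor). Tagln (transgelin) read 32283 in MEF and 16.2 in iNSC_14F (at least 311-fold lower), smooth muscle actin (Acta2) 56590 and 471 (120.2-fold), the myosin light chain Myl9 20560 and 194 (106-fold) and calponin 1 (Cnn1) 7006 and 1.94 (at least 67.4-fold). The 3 probe sets of Acta2 gave log2 differences from -6.91 to -0.47. Lpp was 51.4-fold lower, and Csrp1 and Actg2 at least 123 and 124-fold. Hspb1, a small heat shock protein that binds actin filaments, read 12587 and 202 (62.3-fold lower). Beta-actin (Actb) read 46364 and 43959 and gamma-actin (Actg1) 54924 and 52202, differences of -0.08 and -0.07 on the log2 scale, and Pxn was also level. The 4 tropomyosins formed a series from Tpm2 (33720 and 151, 223-fold lower) over Tpm1 (8.46-fold) and Tpm4 (4.20-fold) to Tpm3 (18079 and 14496, within 2-fold). The 4 probe sets of Tpm2 gave log2 differences from -7.83 to -0.38. All 4 measured filamins and actinins were lower, from Actn1 (20.7-fold) to Actn4 (2.90-fold), as were Cav2 and Cavin1 beside Cav1.

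Promoters of the contractile genes were read because many of them are known targets of SRF, which binds the CArG box (CC, 6 bases of A or T, then GG, searched on both strands). Promoters came from the RefSeq annotation of GRCm38.p6, 250 bases before and 50 after the annotated start, and 9383 of the 11572 measured genes had one. A CArG box stood in 10 of 44 promoters of the contractile list (22.7%), in 127 of all 9383 (1.35%), in 19 of 728 promoters of genes at least 4-fold lower (2.61%) and in 6 of 415 of genes at least 4-fold higher (1.45%). Of those 10 contractile genes, Actc1 and Actg1 were level, with log2 differences of -0.21 and -0.07, and the other 8 were lower by at least 2-fold (Srf itself just so, at 2154 and 1074), among them Myl9, Fhl2 (5023 and 115, 43.6-fold lower), Cnn2 (18908 and 905, 20.9-fold lower) and vinculin (Vcl, 19659 and 3037, 6.47-fold lower). Their promoters are shown with the CArG box in capitals, together with that of Hes5, a Notch target that was higher in iNSC_14F (1.5 and 1084, at least 10.4-fold) and holds one too.
Myl9 (chr2:156775214-156775513, + strand): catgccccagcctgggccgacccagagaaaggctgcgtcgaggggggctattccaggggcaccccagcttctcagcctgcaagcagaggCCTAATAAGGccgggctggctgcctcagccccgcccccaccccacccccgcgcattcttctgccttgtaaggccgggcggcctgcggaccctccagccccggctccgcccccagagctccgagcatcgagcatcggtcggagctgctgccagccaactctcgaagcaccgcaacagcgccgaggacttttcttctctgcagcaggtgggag
Fhl2 (chr1:43196712-43197011, - strand): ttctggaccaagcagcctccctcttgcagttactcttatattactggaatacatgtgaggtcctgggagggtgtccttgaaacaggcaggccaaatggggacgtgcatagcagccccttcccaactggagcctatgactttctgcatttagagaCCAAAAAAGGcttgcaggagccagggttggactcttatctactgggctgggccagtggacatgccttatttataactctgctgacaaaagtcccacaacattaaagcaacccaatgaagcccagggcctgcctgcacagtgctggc
Cnn2 (chr10:79988350-79988649, + strand): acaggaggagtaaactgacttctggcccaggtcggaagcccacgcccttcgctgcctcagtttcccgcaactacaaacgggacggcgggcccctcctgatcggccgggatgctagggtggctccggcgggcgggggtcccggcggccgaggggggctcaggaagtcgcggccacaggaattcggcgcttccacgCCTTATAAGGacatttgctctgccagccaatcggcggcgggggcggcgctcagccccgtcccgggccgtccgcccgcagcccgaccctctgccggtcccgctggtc
Vcl (chr14:20929148-20929447, + strand): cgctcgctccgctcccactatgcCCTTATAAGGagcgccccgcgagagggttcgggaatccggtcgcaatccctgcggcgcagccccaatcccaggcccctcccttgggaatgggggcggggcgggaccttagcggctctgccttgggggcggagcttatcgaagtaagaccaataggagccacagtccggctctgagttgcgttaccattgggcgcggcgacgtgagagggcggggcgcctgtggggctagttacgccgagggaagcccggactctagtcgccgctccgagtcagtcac
Hes5 (chr4:154960673-154960972, + strand): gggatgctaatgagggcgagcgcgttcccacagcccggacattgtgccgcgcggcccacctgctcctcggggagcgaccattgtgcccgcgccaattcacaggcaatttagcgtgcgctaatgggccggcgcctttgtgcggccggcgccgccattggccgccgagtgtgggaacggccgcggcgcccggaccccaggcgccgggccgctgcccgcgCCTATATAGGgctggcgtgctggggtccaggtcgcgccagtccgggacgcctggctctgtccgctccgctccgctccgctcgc
The box began at position -161 in Myl9, -96 in Fhl2, -56 in Cnn2, -227 in Vcl and -33 in Hes5, counted from the annotated start as 0. A match is a description of letters and not a site shown to be bound. The core GGAATG of TEAD factors, searched on both strands, stood in 14 of the 44 contractile promoters (31.8%) and in 11.6% of all. It stood in 13.7% of promoters of genes at least 4-fold lower and in 12.5% of those at least 4-fold higher. Of 31 promoters of the neural progenitor factors, a list with a higher median, 8 held GGAATG (25.8%) and 3 a CArG box (9.68%). The share of either motif therefore did not follow the direction of these 2 lists.

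YAP and TEAD target genes overlap with these lists, and 16 of 27 measured members were lower, 2 higher and 9 within 2-fold (median log2 -2.01). Besides Ccn2 and Ccn1 (23078 and 139, 166-fold lower), Ankrd1, a stretch-responsive gene, was at least 26.6-fold lower, the receptor tyrosine kinase Axl 20.0-fold, Amotl2 18.5-fold, Crim1 11.3-fold and Myof at least 10.6-fold. Igfbp3 was higher by 21.4-fold. The factor gene Tead1 itself was level (5703 and 5147), as were Amotl1 and Sav1. Ccn2 and Ccn1 were not at background on the other induced array, where they read 1070 and 671.

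More TGF-beta and BMP genes were lower than higher, 22 against 3 of 43 measured, and the median log2 difference was -1.26. The latent TGF-beta binding proteins Ltbp1 (6710.1 and 108, 62.4-fold) and Ltbp2 (5746 and 20.9, at least 55.3-fold), the activin chain Inhba (5800.3 and 17, at least 55.8-fold) and Tgfb3 (5401 and 195, 27.8-fold) led. Tgfbi, a target gene, was at least 37.1-fold lower, the inhibitory Smad6 at least 12.8-fold, and the antagonists Fstl1 and Fst 13.4-fold and 9.88-fold. Id1 and Id3, direct targets of BMP signals, were level, with log2 differences of -0.12 and -0.01, and Ltbp4 was level at -0.10.

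**Figure D3:**
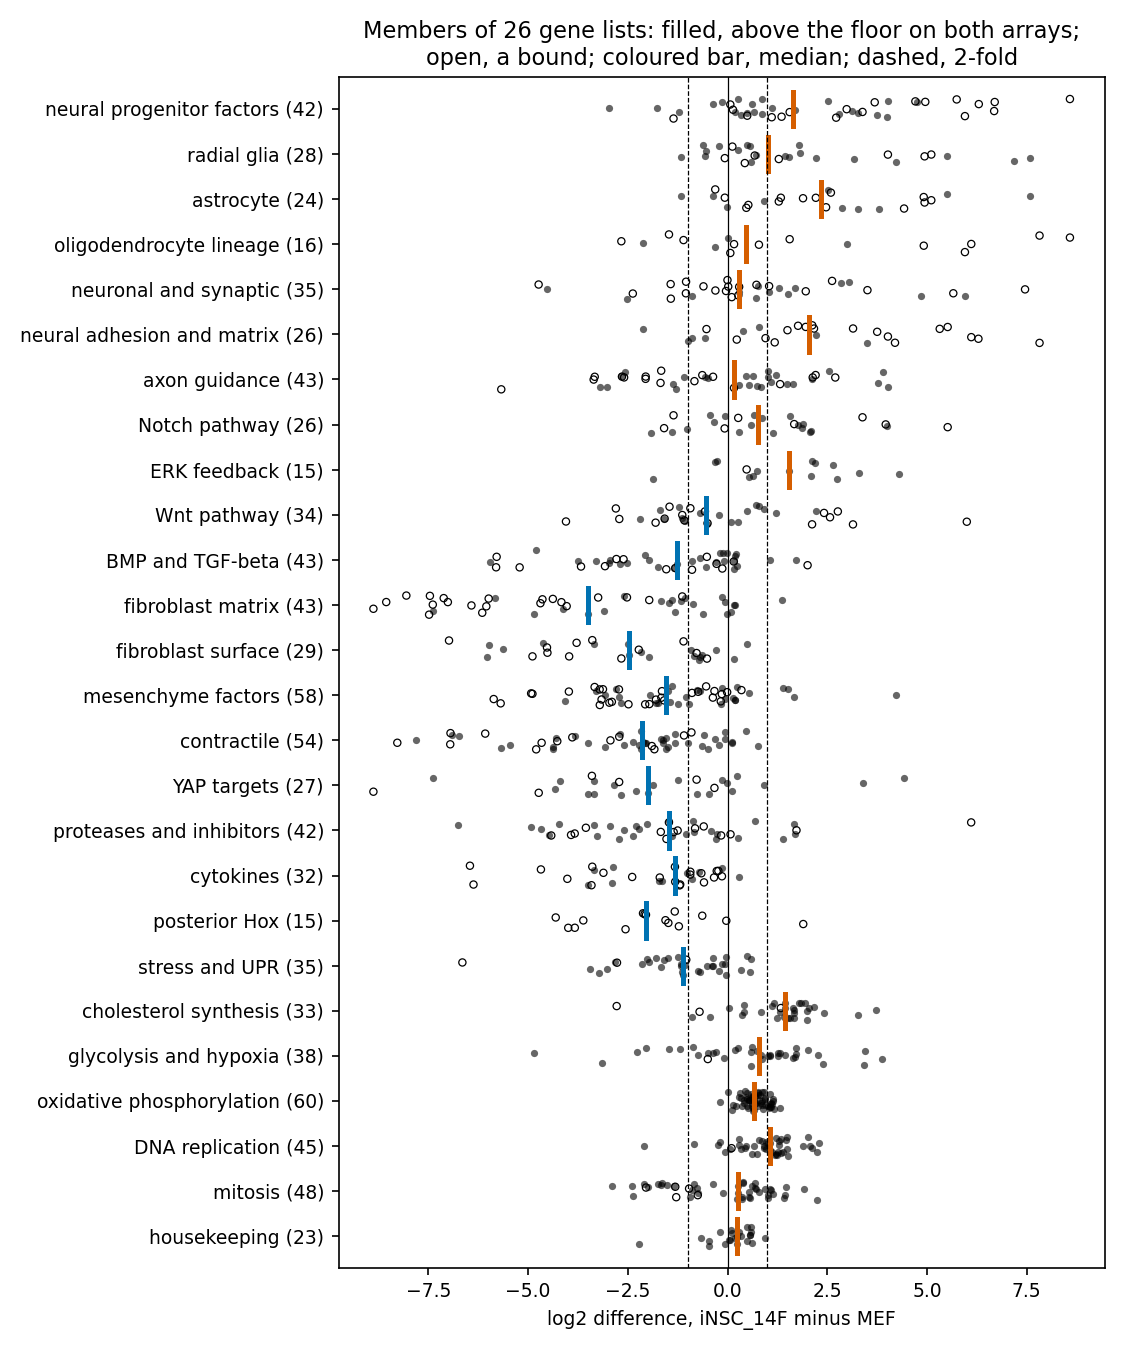
Log2 difference (iNSC_14F minus MEF) of each measured member of 26 gene lists, the number of members in brackets; filled points are genes above the floor on both arrays, open points are bounds, coloured bars are medians and dashed lines mark 2-fold. The fibroblast matrix, surface and contractile lists lie to the left with medians of -3.50, -2.46 and -2.14, the astrocyte and neural adhesion lists to the right with 2.34 and 2.04, and the oxidative phosphorylation list forms a narrow band.

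Growth signals differed in their receptors, ligands and feedback genes. FGF acts through receptor tyrosine kinases and ERK, and ERK switches on its own brakes. Of 20 measured FGF ligands, receptors and carriers 6 were higher and 5 lower. Fgfr3 read 161 in MEF and 7307 in iNSC_14F (45.5-fold higher) and the decoy receptor Fgfrl1 732 and 5928 (8.10-fold higher), while Fgfr1 and Fgfr2 lay at log2 differences of -0.22 and -0.25. The 2 probe sets of Fgfr3 gave log2 differences of 1.61 and 5.51. Of the ligands, Fgf7, made by mesenchyme for epithelia, was at least 8.88-fold lower, and Fgf1 (7.67-fold) and Fgf11 (at least 4.26-fold) were higher. The heparan sulphate carriers Gpc4, Sdc2 and Sdc1 were 6.82-fold, 3.71-fold and 2.88-fold lower. Of 15 ERK feedback and target genes 8 were higher and 1 lower (median log2 1.54). Etv5 read 973 and 19057 (19.6-fold), Spry2 889 and 8699 (9.79-fold), Spry4 was 6.75-fold higher, and cyclin D1 (Ccnd1) read 3266 and 20293 (6.21-fold). Dusp6 and Etv4 were 4.33-fold and 4.25-fold higher, Dusp5 was 3.64-fold lower, and Dusp4 and Phlda1 lay within 2-fold.

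EGF is in the medium of the induced cells, and 2 genes for ligands of its receptor were lower. Hbegf, a membrane-bound EGF receptor ligand, read 10274 in MEF and 574 in iNSC_14F (17.9-fold lower), and Ereg 797 and 23.5 (at least 7.67-fold lower). The feedback inhibitor Errfi1 was 4.67-fold lower and another, Lrig1, 2.73-fold higher. The receptors Egfr (747 and 516) and Erbb2 (489 and 400.0) differed by less than 2-fold. Of the 10 measured members of the list 6 were within 2-fold.

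Of 21 measured PDGF and insulin-like growth factor genes 3 were higher and 8 lower. Igf2, the fetal growth factor, read 12910 in MEF and 41.2 in iNSC_14F (at least 124-fold lower), and Igf2bp1 was at least 6.99-fold lower. Of the binding proteins that hold IGFs outside the cell, Igfbp7 (30406 and 436, 69.8-fold) and Igfbp6 (at least 14.0-fold) were lower, Igfbp5 was level (7977 and 7147), and Igfbp2 (1222 and 29707, 24.3-fold), Igfbp3 (651 and 13925) and Igfbp4 (2.12-fold) were higher. Pdgfc, a PDGF ligand, was 9.26-fold lower.

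Notch signals keep radial glia from differentiating. Of 26 measured genes 12 were higher, 5 lower and 9 within 2-fold, with a median log2 of 0.76. Notch1 read 1517 and 6455 (4.25-fold) and Notch3 580.4 and 2166 (3.73-fold). The ligand Dll1 read 74.9 and 1622 (at least 15.6-fold) while Jag1, the ligand bright in MEF, read 8633 and 2297 (3.76-fold lower). Among targets Hes6 was 15.9-fold higher and Hes5 at least 10.4-fold, but Hes5 read only 36.6 on iNSC_13F and 209 on NSC. Lfng, a glycosyltransferase that tunes Notch, was 4.17-fold higher, and Numb was level.

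Wnt genes went both ways. Of 34 measured members 8 were higher and 14 lower. Fzd9 read 5.6 in MEF and 6638 in iNSC_14F (at least 63.9-fold higher), and it was the one frizzled receptor of 10 measured that was higher; Fzd6, Fzd8 and Fzd7 were at least 6.97-fold, at least 3.49-fold and 2.20-fold lower. The target genes Nkd1 (at least 8.84-fold), Axin2 (97.8 and 706, at least 6.79-fold) and Lgr5 (at least 5.35-fold) were higher with MEF at background. The ligand Wnt7b was also at least 5.93-fold higher. The antagonists Dkk3 (1723 and 20.8, at least 16.6-fold) and Dkk2 (at least 6.56-fold) were lower. In the hedgehog pathway Gas1, a co-receptor, read 2532 and 26827 (10.6-fold higher) and the receptor and target Ptch1 869 and 3304 (3.80-fold higher). Gli3, the repressor of the pathway, was 3.39-fold lower, Foxd1 and Foxf1 were at least 4.19 and 3.47-fold lower, and of 14 measured members 3 were higher, 3 lower and 8 within 2-fold.

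Guidance molecules divided by member. Of 43 measured genes 15 were higher and 16 lower. Slit2, a repellent that MEF made at 5301, read 47.1 in iNSC_14F (at least 51.0-fold lower), and netrin 1 (Ntn1), an attractant, 329.7 and 4490.3 (13.6-fold higher). Among semaphorins all 4 measured class 3 genes, which are secreted, were lower (Sema3c, Sema3e and Sema3f at least 10.2, 6.04 and 4.16-fold, and Sema3a 2.45-fold), as was their receptor Nrp1 (5062 and 548, 9.24-fold). Membrane-bound Sema6d (217 and 3507, 16.2-fold), Sema4b (197 and 2952, 15-fold) and Sema5b (at least 4.39-fold) were higher, although Sema6c (at least 2.97-fold) and Sema7a (at least 6.45-fold) were lower. The receptors Epha3 and Unc5b were at least 10.1-fold and 8.18-fold lower.

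Proteases and their inhibitors were mostly lower. Of 42 measured genes 26 were lower and 5 higher (median log2 -1.47). Timp1, Timp2 and Timp3, inhibitors of matrix metalloproteases, read 19167, 10764 and 7719 in MEF and 865, 1403 and 303 in iNSC_14F, 22.2-fold, 7.67-fold and 25.4-fold lower. Timp4, the form of heart and brain, read 5.87 and 7161, at least 68.9-fold higher. The collagenase Mmp14 was 30.5-fold lower, Mmp2 18.6-fold, Mmp23 at least 21.4-fold and cathepsin K (Ctsk) at least 15.2-fold. Serpinf1 (PEDF) was 109-fold lower, and none of 11 measured serpins was higher by 2-fold.

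Other families also had members on both sides. Of the S100 calcium-binding proteins, S100a6 (32707 and 238, 138-fold), S100a4, S100a13, S100a1 and S100a10 were lower and S100b, the glial member, was at least 4.63-fold higher. Fabp4 and Fabp3, of fat and muscle, were at least 13.7-fold and 6.69-fold lower, Fabp7 was 145-fold higher, and Fabp5, bright on both arrays, lay at 29387 and 55666. Cdh11, the cadherin of mesenchyme, read 9848 and 37.9 (at least 94.8-fold lower) and Cdh4 70.1 and 4628 (at least 44.5-fold higher); N-cadherin (Cdh2), shared by both cell types, was level at 4093 and 4935. Lamin A (Lmna) read 10294 and 1253 (8.22-fold lower), and the B-type lamins Lmnb1 and Lmnb2 were 2.91-fold and 2.96-fold higher. The tetraspanins ran from Tspan4 (5.21-fold lower) to Tspan12 (at least 11.5-fold higher), with 8 of 17 measured members higher and 4 lower. The annexins, calcium-dependent membrane binders, lay on 1 side: all 8 measured were lower, from Anxa1 (25680 and 73.1, at least 247-fold) and Anxa3 (at least 107-fold) to Anxa6 (3.04-fold).

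**Figure D4:**
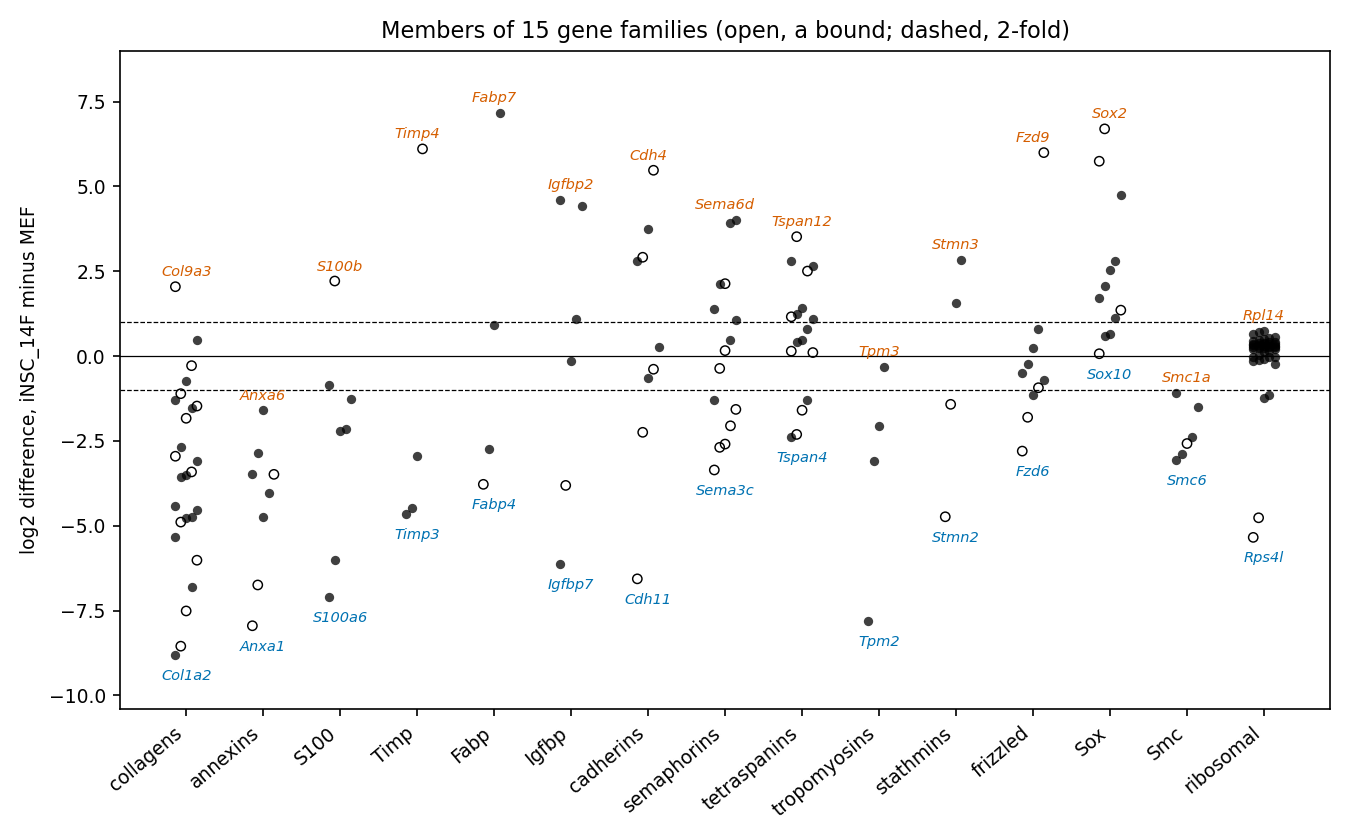
Log2 difference (iNSC_14F minus MEF) of each measured member of 15 gene families; open points are bounds, dashed lines mark 2-fold, and the highest and lowest member of each family are named. The Timp, S100, Fabp, Igfbp, cadherin and semaphorin families have members beyond both dashed lines, the annexins and Smc genes only below the lower one, and the ribosomal proteins lie together except for Rps4l and a few others.

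Among cytokines and mediators of inflammation 20 of 32 measured genes were lower and none higher (median log2 -1.32). The chemokine Cxcl12 read 9138 and 50.3 (at least 87.9-fold lower) and the prostaglandin synthase Ptgs2 8589.5 and 2.57 (at least 82.7-fold). Socs3 was 11.2-fold lower, and Tnfaip2 and Ptgis at least 25.6 and 16.2-fold. In the interferon and antigen presentation list 8 of 23 were lower, 1 higher and 14 within 2-fold. Ifi35 (at least 36.6-fold), Ifitm3 (10962 and 617, 17.8-fold) and B2m, the light chain of MHC class I (14853 and 3203, 4.64-fold), were lower. The peptide transporter Tap1 was the higher one, at 121 and 596 (4.91-fold).

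Metabolic lists differed among themselves. Cholesterol synthesis genes were higher in 24 of 33 cases and lower in 1, with a median log2 of 1.45. Dhcr7, the enzyme of the last step, read 414 and 5478 (13.2-fold), Tm7sf2 275 and 2628 (9.57-fold), Mvd was 5.38-fold higher, Fdft1, which makes squalene, 4.10-fold, and Lss and Nsdhl 3.98-fold and 3.95-fold. The lower one was Abca1, the pump that exports cholesterol (714 and 62.8, at least 6.87-fold). Idi1, Hsd17b7 and Acaca were nearest to no difference. Subunits of oxidative phosphorylation lay close together: 48 of 60 lay within 2-fold, 12 were higher and none lower, between log2 -0.18 and 1.31 with a median of 0.67, against 0.21 for all genes above the floor on both arrays. Cyc1 (8043 and 19900, 2.47-fold) was the highest. Ribosomal protein genes lay within 2-fold in 39 of 43 cases. The 2 largest exceptions were the extra copies Rps4l (4221 and 7.13, at least 40.6-fold lower) and Rpl39l (2828 and 41.6, at least 27.2-fold lower), and near-identical ribosomal sequences can share probes.

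Glycolysis and hypoxia genes were spread to both sides, with 17 of 38 higher and 6 lower (median log2 0.78). Among those higher were 4 hypoxia-responsive genes. The glucose transporter Slc2a3 read 1064 in MEF and 11655 in iNSC_14F (11-fold), Ankrd37 185 and 2695 (14.5-fold), Ddit4 1975 and 21289 (10.8-fold) and the prolyl hydroxylase Egln3 992 and 4039.7 (4.07-fold). On iNSC_13F the same genes read 478, 205, 2502 and 289, and on NSC 407, 93.7, 3137 and 453. Each of these 4 was at least 4-fold brighter on iNSC_14F than on both MEF and iNSC_13F, and they were named after their values were seen. Only NSC was therefore free to be brighter than iNSC_14F, and it was not. Epas1 was 5.26-fold higher and the lactate dehydrogenase chain Ldhb 4.80-fold. Against them the collagen prolyl hydroxylase P4ha2 (5459 and 189, 28.8-fold), Pfkp (8.80-fold) and Hif1a (5159 and 1064, 4.85-fold) were lower, and the transporter Slc2a1 was level at 10055 and 9385. The core ACGTG of hypoxia elements, searched on both strands, stood in 19 of 35 promoters of the list (54.3%) and in 26.0% of all. It stood in 21.4% of promoters of genes at least 4-fold higher and in 26.6% of those at least 4-fold lower.

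Among 35 genes of amino acid stress and of the unfolded protein response 20 were lower and none higher (median log2 -1.12). Nupr1 read 10420 and 14.1 (at least 100.3-fold lower), Trib3, a pseudokinase induced by ATF4, 1410.1 and 128 (11-fold), Chac1, which cleaves glutathione, 1979 and 244 (8.10-fold), and Ddit3 (CHOP) 3467 and 489 (7.10-fold). The chaperone Hsp90b1 was 9.41-fold lower while Calr, Dnajb9 and Shmt2 were level. ATF4 binds elements of the form TGATGNAA (searched on both strands), which stood in 7 of 32 promoters of the list (21.9%), in 194 of all (2.07%), in 29 of 728 of genes at least 4-fold lower (3.98%) and in 3 of 415 of genes at least 4-fold higher (0.723%). The promoters of Trib3 and Chac1 are shown because both genes were called lower and hold a match, in capitals and on the opposite strand in both.
Trib3 (chr2:152344011-152344310, - strand): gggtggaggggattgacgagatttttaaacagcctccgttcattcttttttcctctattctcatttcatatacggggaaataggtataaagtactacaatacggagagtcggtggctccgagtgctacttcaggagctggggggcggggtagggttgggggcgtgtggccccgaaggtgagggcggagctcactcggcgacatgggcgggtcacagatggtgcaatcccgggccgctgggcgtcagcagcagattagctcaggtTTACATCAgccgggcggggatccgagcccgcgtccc
Chac1 (chr2:119350992-119351291, + strand): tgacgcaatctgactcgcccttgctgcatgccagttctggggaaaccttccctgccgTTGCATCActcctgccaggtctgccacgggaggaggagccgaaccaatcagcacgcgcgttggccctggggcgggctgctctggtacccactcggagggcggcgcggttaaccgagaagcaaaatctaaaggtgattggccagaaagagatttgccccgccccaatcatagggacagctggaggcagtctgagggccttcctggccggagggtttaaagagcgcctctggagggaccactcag
The match began at position 14 in Trib3, after the annotated start, and at -193 in Chac1.

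Of 45 measured replication genes 24 were higher and 1 lower, with a median log2 of 1.06. The polymerase delta subunits Pold1 (764 and 3732, 4.88-fold) and Pold2 (4.19-fold), DNA ligase 1 (Lig1, 1360.5 and 6445, 4.74-fold), Rpa2 (4.31-fold), the helicase subunit Mcm2 (1232 and 4969, 4.03-fold) and the flap nuclease Fen1 (3.69-fold) were the highest, and Ccne2, a cyclin E, was 4.28-fold lower. The E2F site TTTCNCGC, on either strand, stood in 11 of 37 promoters of this list (29.7%) and in 374 of all (3.99%). Among genes at least 4-fold higher it stood in 18 of 415 promoters (4.34%), and among those at least 4-fold lower in 21 of 728 (2.88%). Pold1 is shown as the highest member with a match, which lies at position 39, on the opposite strand.
Pold1 (chr7:44548766-44549065, - strand): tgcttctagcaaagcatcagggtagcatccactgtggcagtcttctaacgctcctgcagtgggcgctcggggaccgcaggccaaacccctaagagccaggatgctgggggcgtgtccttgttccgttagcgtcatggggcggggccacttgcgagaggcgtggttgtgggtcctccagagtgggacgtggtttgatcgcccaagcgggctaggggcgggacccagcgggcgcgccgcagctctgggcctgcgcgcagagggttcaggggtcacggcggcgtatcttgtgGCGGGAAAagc
Among 48 mitosis genes 10 were higher, 13 lower and 25 within 2-fold. Aurkb read 789.9 and 3764 (4.77-fold higher) and Ncapd2 1059 and 3974 (3.75-fold higher), while Anln, Hmmr and Bub1 were 5.15-fold, 4.27-fold and 3.99-fold lower and Cenpe at least 4.13-fold. The 6 measured Smc genes, the coiled-coil ATPases of cohesin, condensin and a related complex, were all lower: Smc5 at least 5.97-fold, Smc6 8.32-fold, Smc2 7.46-fold, Smc4 5.23-fold, Smc3 2.83-fold and Smc1a 2.12-fold. Smc2 and the condensin partner Ncapd2 therefore lay on opposite sides. Of the lower genes named here, Ccne2, Hmmr, Cenpe, Smc2, Smc4, Smc5 and Smc6 were at least 2-fold higher on NSC than on MEF. They were dim on iNSC_13F as well. Hmmr, for example, read 3071 on NSC and 140 on iNSC_13F. This group is taken up below with the actin control.

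Of 24 measured p53 targets and cell cycle inhibitors 8 were higher and 6 lower. Pmaip1, a p53 target, was 13.1-fold lower (3929 and 299), Ccng1 6.58-fold and the inhibitor Cdkn2b 5.85-fold (7029 and 1201), whereas Cdkn2c was 4.26-fold higher and Cdkn2a level at 605 and 655. Of 37 measured genes of chromatin silencing 13 were higher and 2 lower (median log2 0.66). They were led by Rcor2, a corepressor (212 and 1455, 6.87-fold), and the remodeller Chd7 (102 and 668, at least 6.43-fold), with the maintenance methyltransferase Dnmt1 at 1902 and 6825 (3.59-fold). The demethylase Kdm6a was at least 4.71-fold lower.

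Of 26 measured regulators of splicing 8 were higher and 7 lower. Muscleblind genes Mbnl1 (6034 and 358, 16.8-fold) and Mbnl2 (4427 and 244, 18.2-fold) and Ptbp3 (8.58-fold) were lower. The neural regulators Nova1 (95.1 and 934, at least 8.99-fold) and Nova2 (7.65-fold), Rbm24 (at least 11.9-fold) and the RNA-binding proteins of neural stem cells Msi1 (3.46-fold) and Msi2 (3.50-fold) were higher. Srrm4 and Elavl4, regulators of neurons, were at or near the floor.

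Of 26 measured imprinted genes 10 were lower and 3 higher. Besides Igf2, Grb10 read 16466 and 173 (95-fold), the non-coding Meg3 9711 and 148 (65.6-fold), its neighbours Rian and Mirg were at least 20.1 and 8.50-fold lower, and Plagl1 read 5120.4 and 196 (26.2-fold). Probe sets of Grb10 gave log2 differences from -6.57 to -0.0046, and those of Meg3 from -6.42 to -0.64. Slc38a4 was at least 16-fold lower. Gatm, the creatine synthesis enzyme, was 16.9-fold higher, and Gnas and Sgce were level. Meg3, Rian and Mirg were dim as well on iNSC_13F (95.7, 38.7 and 55.6) and NSC (87.4, 104 and 10.3).

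Hox genes encode position along the body. Of 15 measured genes of the posterior groups 12 were lower and 1 higher; Hoxd13 read 2058 and 15.9, Hoxa9 1656 and 46.4, Hoxa10 1477 and 7.2 and Hoxc8 1274 and 13.9, each with iNSC_14F at background. Of 10 measured anterior genes, Hoxa3 (146 and 1249, 8.53-fold) and Hoxa2 (155 and 892, 5.76-fold) were higher, Hoxc5, Hoxc4 and Hoxb4 were lower, and 5, Hoxb2 among them, were level (median log2 0.00). Among factors of brain regions 11 of 35 were measured. Lhx2 (109 and 947, 8.66-fold) and Irx5 (3.05-fold) were higher, Egr2, which marks hindbrain segments and is also an early response gene, 5.62-fold lower, and Irx1, Irx2, Irx3, Msx1 and Emx2 within 2-fold.

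The labels do not name the 14 factors, so 8 genes known from published work on neural conversion were read instead. Rfx4, Notch1 and, within 2-fold, Hes1 (1005 and 1825) and Myc (3046 and 4049) were brighter in iNSC_14F, and Klf4 (4472 and 1706, 2.62-fold) and Plagl1 (26.2-fold) were lower. Pou3f2 read 146, a little above the floor, and Hes3 was below it on both arrays. An array signal does not tell an introduced copy from the cell's own gene. Lists of cell identities outside both samples had few measured genes and none that was higher: 1 of 20 hepatocyte genes on the array was measured, and of 3 B lymphocyte, 7 pluripotency, 10 epithelial and 6 myeloid or endothelial genes measured 1, 2, 4 and 0 were lower. Among 23 housekeeping genes 22 lay within 2-fold and B2m was the exception.

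Genes past 4-fold also lay side by side in the genome. Runs of at least 3 neighbouring measured genes all past 4-fold in 1 direction numbered 18 on the lower side and 3 on the higher side, with 929 and 520 genes called. The lower runs included Mdfic, Tes, Cav2 and Cav1 (-2.22, -5.15, -2.46 and -5.62 on the log2 scale), the 3 genes Gulp1, Col3a1 and Col5a2 (-3.97, -8.55 and -4.77), Pla2g4a with its neighbour in prostaglandin synthesis Ptgs2 and Odr4, Hoxa9 to Hoxa11 with Hoxa11os, and the imprinted trio Meg3, Rian and Mirg. Ptger4, Dab2, Rictor and Osmr formed a run of 4, as did Twistnb, Twist1, Snx13 and Ahr. The 3 higher runs were Haghl, Antkmt and Metrn (3.67, 2.30 and 3.90), the last a secreted factor of glia; Lratd1, Trib2 and Lpin1; and Scrg1 and Sap30 with a neighbour that has no established symbol. Neighbours such as Hoxa11 and Hoxa11os can share probes or transcripts.

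Base composition of the promoters differed little between the sides. The median GC content was 62.3% for genes at least 4-fold higher and 62.3% for those at least 4-fold lower, and 61.3% for all measured genes. Across quartiles of promoter GC content the share of genes at least 4-fold higher ran from 3.86% to 4.78% and that of genes at least 4-fold lower from 6.82% to 9.39%, the latter in the most GC-rich quartile. In all 17 motifs were searched, and the text gives a choice of them. The TATA box TATAAA stood in 73 of 728 promoters of the lower genes, 6.51% of the higher genes and 6.94% of all. For the Sox site ACAAAG the shares were 17.8% of the higher genes, 14.6% of the lower genes and 13.3% of all. The sterol element TCACNCCAC stood in 1 of 25 promoters of the cholesterol list and in 1.09% of all. The octamer ATGCAAAT, a motif of Pou factors, stood in 15 of 415 promoters of the higher genes (3.61%), in 11 of 728 of the lower genes (1.51%) and in 1.31% of all. At 2-fold its share among higher genes was 1.69% (29 of 1721). It stood in 0 of 31 promoters of the neural progenitor factors and in 3 of 44 of the contractile list (6.82%), so its share did not follow the direction of the lists. Gpm6a, with the largest difference among the 15, is shown with its octamer in capitals, on the opposite strand from position -90.
Gpm6a (chr8:54779184-54779483, + strand): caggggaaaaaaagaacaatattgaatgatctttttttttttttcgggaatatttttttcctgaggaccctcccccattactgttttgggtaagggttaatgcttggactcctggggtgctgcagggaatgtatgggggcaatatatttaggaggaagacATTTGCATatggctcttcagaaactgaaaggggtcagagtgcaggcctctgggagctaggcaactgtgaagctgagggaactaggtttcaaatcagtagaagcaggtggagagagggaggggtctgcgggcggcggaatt
Col3a1, one of the genes furthest down, also holds an octamer in its promoter.

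**Figure D5:**
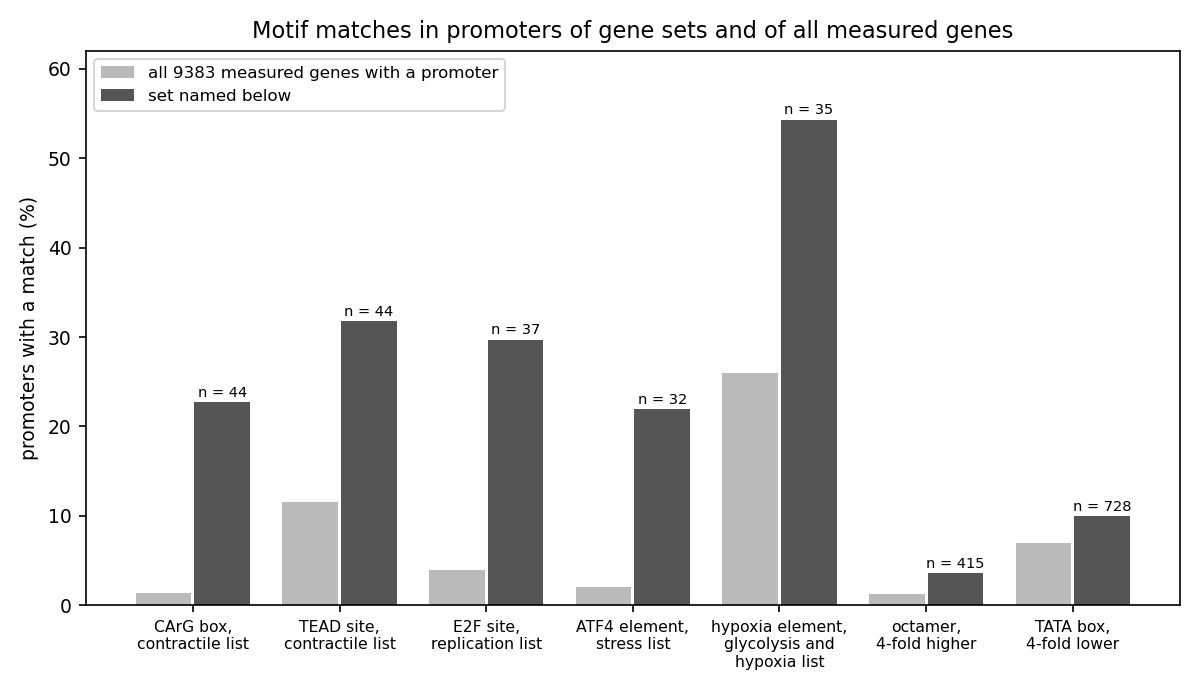
Percent of promoters (250 bases before to 50 after the annotated start) with a motif match on either strand, in the gene set named on the axis (dark, with its number of promoters) and in all 9383 measured genes with a promoter (light). The CArG box in contractile promoters (22.7% against 1.35%), the E2F site in replication promoters (29.7% against 3.99%) and the ATF4 element in stress promoters (21.9% against 2.07%) have the largest ratios to the share of all, and the hypoxia element in glycolysis and hypoxia promoters (54.3% against 26.0%) the widest gap in percent.

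The other 2 arrays were read beside these genes. They share no sample with iNSC_14F, but any comparison of theirs with MEF uses the same MEF array, so only signals and counts are given. The called genes were chosen by their difference from that array, and the matching shares of all measured genes were not counted. The counts below are therefore not agreement of independent arrays. Of the 520 genes higher in iNSC_14F, 438 were also at least 2-fold higher on NSC than on MEF and 2 were at least 2-fold lower; 279 had an NSC signal within 2-fold of iNSC_14F, 214 a lower and 27 a higher one. Of the 929 lower genes 634 were lower on NSC too, but 105 (11.3%) were at least 2-fold higher on NSC than on MEF. None of these 105 belongs to the fibroblast matrix, contractile, mesenchymal factor or splicing regulator lists. The mitosis list holds 4 of them and the replication list 1. The 105 were chosen for signals higher on NSC than on MEF. Fibroblast markers summed to 646.1 on NSC against 158237 on MEF, so genes of that kind could hardly be among the 105. No conclusion is drawn from their absence. On iNSC_13F 910 of all 929 lower genes were at least 2-fold lower than on MEF, among them 103 of the 105. Named after their values were seen, they include the exocyst subunit Exoc5 (1618 in MEF, 139 in iNSC_14F, 138 in iNSC_13F and 3589 in NSC), the ubiquitin ligase Ube3a (1724, 193, 185 and 5351 in the same order), the kinesin Kif5b (2368, 316, 216 and 6162) and the nuclear matrix protein Matr3 (5637, 836, 634 and 15597). Smc2, Smc4, Smc5, Smc6, Hmmr, Cenpe and Ccne2 also belong to them. For these genes NSC was the brightest array and both induced arrays the dimmest. The 3' to 5' ratio of the actin control was also higher on the induced arrays (1.65 on iNSC_14F, 1.53 on iNSC_13F) than on MEF (1.42) and NSC (1.35), and its part in this group was not tested.

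Sex-linked genes set the samples apart as well, and were named after their values were seen. Xist, the RNA of the inactive X chromosome in female cells, read 2893 in MEF, 13134 in NSC and 3072 in iNSC_13F but 58 in iNSC_14F, below the floor. The Y-linked Eif2s3y read 408 in iNSC_14F, 367 in MEF, 106 in iNSC_13F and 19 in NSC. Other Y-linked genes did not follow it: Uty read 123 in MEF and 33.7 in iNSC_14F, and Kdm5d was below the floor on both (80.5 and 85.3), so that the Y-linked signal of iNSC_14F rests on Eif2s3y alone. The X-linked genes Ddx3x (7169.8 and 845), Usp9x (762 and 174) and Kdm6a were lower in iNSC_14F, but also on iNSC_13F, where they read 821, 104 and 135 and Xist was bright. Eif2s3x was level at 6141 and 5438, and Kdm5c, also X-linked, read 818 and 1596, just under 2-fold higher. The part of sex in the other differences was not tested.

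Of the 520 higher genes, 22 were also at least 4-fold brighter on iNSC_14F than on iNSC_13F. Apart from the hypoxia genes Slc2a3, Egln3, Ankrd37 and Ddit4 and from Ppp1r3c, Hes5, Fzd9, Kbtbd11 and Syn2 above, and again named after their values were seen, they included Afap1l2 (84.9 in MEF, 1748 in iNSC_14F, 65.1 in iNSC_13F and 162 in NSC), the selenium-binding protein Selenbp1 (42.1, 3679, 317 and 115), the cyclin Ccng2 (941, 3951, 565 and 1384) and the factor Klf15 (12.9, 454, 5.4 and 117). The 22 were chosen for exceeding MEF and iNSC_13F, so for these 4 only NSC was free to be brighter than iNSC_14F, and it was not.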

How the data were processed

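RNA of the 4 samples was measured on 1 array each. The deposited values are linear intensities, made by the authors with MAS5 per the submitters' processing notes; each array had a trimmed mean of 500, and its further settings were not given in the sources used here. Of 45101 probe sets, 34945 name 1 gene in the platform annotation, 932 name several, 9160 none and 64 are controls; 34741 were matched to RefSeq by gene ID. No further normalization was applied. The floor, 103.91, is the highest over the 4 arrays of the 95th percentile of 86 probe sets of smell, pheromone and taste receptors. The probe set with the highest floored mean over the 4 arrays stood for its gene, and log2 differences (iNSC_14F minus MEF) were taken of floored signals. With 1 array a side no test was made and the number of arrays limits the precision. A gene was called at 4-fold; lists and families were counted at 2-fold. Genes were named by rule: the 15 largest differences each way with both arrays above the floor, the 12 largest bounds each way, up to 8 members of each of 43 lists with the largest differences and up to 3 nearest to none, the highest and lowest member of each of 50 families, all members of small lists and families, cell type markers and neighbour runs. The text gives a choice of these, and other family members and genes it marks were named after their values were seen. The lists and members were chosen with earlier results of these data known. The scripts were tested on simulated data, and 9 alternatives were tried. Python 3.11.15, pandas 2.3.3, numpy 2.4.6, scipy 1.17.1 and matplotlib 3.10.9 were used.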

Additional observations from a re-analysis of the deposited data

Results flagged for a closer look

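Probe sets that the annotation names by no gene were outside the comparison, and some of them differed too. Of 9160 such probe sets 1804 were above the floor on at least 1 of the 2 arrays. Of these, 47 were at least 4-fold higher in iNSC_14F and 101 at least 4-fold lower. With 1 array a group, no group was examined for a sample far from the others.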

How the results depend on the processing

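No paired analysis was possible because each group has 1 array, and no replicate could be left out. Genes at least 4-fold higher and lower numbered 816 and 1486 with no floor and a pseudocount of 16, and 287 and 513 where both arrays had to be above the floor, which leaves fewer genes. The percent of 4-fold genes that are higher in iNSC_14F was 40.1 under quantile normalization, and the cause was not tested. The median of the neural adhesion and matrix list turned to -0.087 over the 8 members above the floor on both arrays, since the alternative leaves out the 18 bounds. Where probe sets of a gene were summarised by their median and not by the brightest, 349 and 626 genes were called, and 318 of the 520 higher and 580 of the 929 lower calls were kept. With the floor at the 99th percentile 382 and 714 calls were kept. No gene called at 4-fold was called the other way under any of the 9 alternatives. Those that change only the floor, the scaling or the set of genes could hardly reverse such a call, so no conclusion is drawn from this. Of 3020 log2 differences of named genes over the alternatives, 478 moved by 0.585 or more. With the median of probe sets 114 of 327 did. Signals near the floor, the single array a side and unknown RNA handling limit every value.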
